A study of Mus musculus with 6 samples.

Results

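The vehicle-treated mouse embryonic fibroblasts (MEFs) made up 2 of the 6 RNA-seq libraries of the series, and they were taken by their labelled treatment. All 6 libraries came from wild-type cells, and the other 4 held 2 libraries from cells given MASM7, a small molecule activator of mitofusins, and 2 from cells given MFI8, a mitofusin inhibitor. Those 4 libraries are not compared here, so every value below is a level in control cells and not a response. The labels name the control only as vehicle and give neither the strain, the age of the embryos nor the length of the treatment. In the study, the legend of the RNA-seq panel on respiratory genes has the compounds on the cells for 6 h, and it gives no separate time for the vehicle. The study's methods say, for the study at large, that wild-type MEFs came from another laboratory. Whether the cells are primary or an established line, and whether they come from a single clone, is not given in the sources used here.

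Polyadenylated RNA was measured with a kit that does not mark strand, and all 55291 genes listed in the files were described. Replicate 1 had 22924037 reads counted to genes and replicate 2 had 25068530, so 1 count was worth 0.0436 and 0.0399 CPM, the count scaled to the size of the library. A count was found for 20599 genes in replicate 1 and for 21071 in replicate 2. Levels are given as TPM (transcript abundance), which divides a gene's count by its length and scales each library to the same total. Where a pair of values is given, replicate 1 stands first. The series calls the replicates independent and biological, and with 2 libraries in the group the spread between them is shown by both values, or as the standard deviation (SD, n = 2), with no test.

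Fibroblasts are the connective tissue cells that secrete, assemble and remodel the extracellular matrix. In culture they spread on a stiff surface, hold it through integrins in focal adhesions, and pull on it with bundles of actin and non-muscle myosin called stress fibers. Embryonic fibroblasts are a mixed population from the body wall and limbs of the embryo, and they keep some of the transcription factors of the place they came from. Their mitochondria form a network whose fusion is carried out by mitofusins and OPA1.

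The label was first checked against 4 markers. Vim, the intermediate filament protein of mesenchymal cells, stood at 2383 and 1966 TPM and ranked 30 by mean TPM among all genes listed. Col1a1, a chain of type I collagen, stood at 1435 and 1106 TPM and ranked 70. The partner chain Col1a2 stood at 685 and 557 TPM and ranked 202. All were among the most abundant transcripts of the cells, and each was lower in replicate 2. Fn1, which encodes the adhesive glycoprotein fibronectin, stood at 397 and 342 TPM and ranked 397. The means were 2174 ± 295 TPM for Vim, 1270 ± 233 for Col1a1, 621 ± 90.5 for Col1a2 and 369 ± 38.4 for Fn1 (SD, n = 2). With the longest coding transcript of each gene as the length, the mean became 3279 TPM for Vim, 980.3 for Col1a1, 1006 for Col1a2 and 362 for Fn1, so the order of the type I chains turned on the length used. By raw counts, which favor long transcripts, the ranks were 7 for Vim, 13 for Col1a1, 15 for Col1a2 and 49 for Fn1. In the GENCODE vM21 annotation of GRCm38, Vim lies on chromosome 2 from 13573927 to 13582826 on the plus strand, Col1a1 on chromosome 11 from 94936224 to 94953042 on the plus strand, Col1a2 on chromosome 6 from 4504814 to 4541544 on the plus strand and Fn1 on chromosome 1 from 71585520 to 71653200 on the minus strand.

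**Figure D1:**
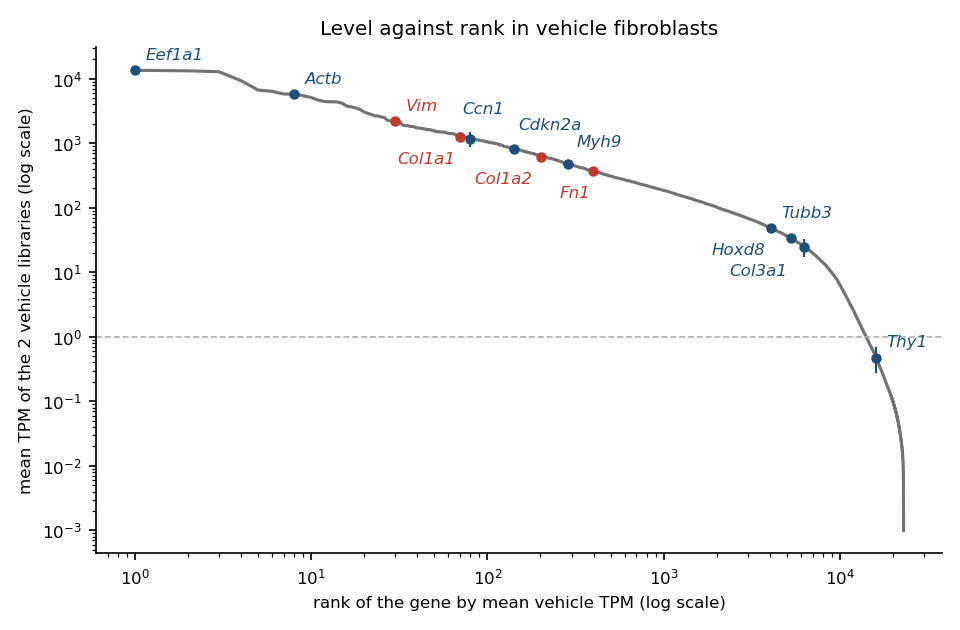
Mean TPM of the 2 vehicle libraries (vertical, log scale) against the rank of each gene (horizontal, log scale), with the 4 markers in red, other named genes in blue, a vertical line from one library's value to the other's, and a dashed line at 1 TPM. The 4 markers lie between ranks 30 and 397, far above Thy1, which lies under 1 TPM in both libraries.

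The promoters of the most abundant transcript and of the markers for which RefSeq gives a sequence (GRCm38.p6) are shown to set the levels beside the DNA in front of the genes. Each runs 5′ to 3′ from 250 bases before the annotated start to 50 after it, with capitals where 1 of 4 motifs was found on either strand. The motifs are TATAA (the core of the TATA box), the letters CCAAT (the box bound by NF-Y), the letters GGGCGG (a GC box bound by Sp1) and the CArG box bound by serum response factor.
Eef1a1 (chr9:78481675-78481974, minus strand): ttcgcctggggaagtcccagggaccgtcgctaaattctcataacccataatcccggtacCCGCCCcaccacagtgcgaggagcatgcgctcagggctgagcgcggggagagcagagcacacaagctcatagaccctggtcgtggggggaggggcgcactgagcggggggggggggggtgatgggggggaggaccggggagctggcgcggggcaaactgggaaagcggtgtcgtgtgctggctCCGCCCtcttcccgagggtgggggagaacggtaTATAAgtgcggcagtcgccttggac
Vim (chr2:13574061-13574360, plus strand): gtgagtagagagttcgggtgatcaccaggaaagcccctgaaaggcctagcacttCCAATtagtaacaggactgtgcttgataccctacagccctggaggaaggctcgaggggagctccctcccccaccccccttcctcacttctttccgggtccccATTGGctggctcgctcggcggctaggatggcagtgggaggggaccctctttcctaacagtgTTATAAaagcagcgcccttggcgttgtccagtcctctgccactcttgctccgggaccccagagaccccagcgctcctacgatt
Col1a2 (chr6:4505368-4505667, plus strand): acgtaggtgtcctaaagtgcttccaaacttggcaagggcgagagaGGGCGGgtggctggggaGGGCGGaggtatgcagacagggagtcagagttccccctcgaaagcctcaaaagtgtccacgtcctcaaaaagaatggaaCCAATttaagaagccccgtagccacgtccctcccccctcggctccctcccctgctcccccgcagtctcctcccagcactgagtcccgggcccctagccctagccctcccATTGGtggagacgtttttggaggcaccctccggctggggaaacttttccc
In Vim a TATAA match began at position -33 from the annotated start and in Eef1a1 at position 25, inside the transcribed part, while Col1a2 held none. Over 16515 protein-coding genes with a window, 21.9% held TATAA, 38.8% CCAAT, 48% GGGCGG and 1.54% a CArG box. These are matches of letters and were not tested as sites in use. RefSeq rows for Col1a1 and Fn1 are not used here.

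Sequence composition went with level across the genes. The ratio of observed to expected CpG in the window had a median of 0.204 in 5519 genes at 0 TPM in both libraries. It was 0.714 in genes from 1 to under 10 TPM and 0.84 in genes from 100 to under 1000 TPM. TATAA followed another order. It was present in 38.1% of the windows of genes at 0 TPM, in 11% of those from 10 to under 100 TPM, and in 38.2% of the 68 genes at 1000 TPM or more, so it was most frequent at both ends of the scale.

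Of the 55291 genes listed, 13373 stood at 1 TPM or more in both libraries, which is 24.2%. Among the 21534 protein-coding genes the number was 10533, or 48.9%. No count in either library was found for 58.5% of the genes listed and for 34.6% of the protein-coding genes. The genes at 1 TPM or more that are not protein-coding were led by 1241 processed pseudogenes, which are copies of mature transcripts that reads of the parent gene can match. The median over the 22940 genes with a count in either library was 3.13 TPM, which is 2.05 on the log2(TPM + 1) scale.

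A small number of genes took much of the RNA. The 10 most abundant genes held 8.34% of all TPM in replicate 1 and 8.49% in replicate 2. The 100 most abundant held 24.7% and 24.6%, and the 1000 most abundant held 57.5% and 57.3%. The 108 genes at 1000 TPM or more held about as large a share of the RNA (25.6% and 25.4%) as the 6929 genes from 10 to under 100 TPM (26.3% and 26.5%).

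Genes of protein synthesis and of the mitochondrial genome led the ranking. Eef1a1, the elongation factor that brings aminoacyl-tRNA to the ribosome, was highest by mean TPM at 13647 and 13374 TPM, followed by mt-Co1 at 12554 and 13978 TPM and mt-Nd1 at 12353 and 13322 TPM, which encode subunits of respiratory complexes IV and I. In replicate 2 mt-Co1 stood above Eef1a1. Of the 20 highest genes, 5 were encoded by mitochondrial DNA and 7 encoded cytosolic ribosomal proteins (Rplp1, Rpl8, Rplp0, Rps15, Rpl4, Rps2 and Rpl41). The 82 cytosolic ribosomal protein genes together held 10.2% and 9.74% of all TPM. The 37 genes of mitochondrial DNA held 4.77% and 5.21%.

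The other protein-coding genes among the top 20 were few. Lgals1, which encodes the secreted lectin galectin-1, ranked 4 at 9700 and 8956 TPM. Actb, the cytoplasmic beta-actin, ranked 8 at 5979 and 5547 TPM. Hsp90ab1, the constitutive cytosolic HSP90 chaperone, stood at 5422 and 5512 TPM, and Eef2, the translocation factor of the ribosome, at 4477 and 4297 TPM. S100a6, a calcium-binding protein of mesenchymal cells, and Npm1, a nucleolar chaperone of ribosome assembly, completed the group at 4221 and 4110 TPM and 3230 and 3777 TPM. The remaining entry, Gm23935, is annotated as a microRNA gene, and its 4792 and 4036 TPM rested on 1774 and 1627 counts over a very short length, against 55895 and 71194 counts for Npm1.

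Some of these levels can be split between near-identical genes. As a measure, every 50-base window of a gene's transcripts was searched in the transcripts of all other genes. The share found elsewhere was 39.4% for Eef1a1, 60% for Rplp1, 24.7% for Gapdh and 9.12% for Actb. Over the 931 list genes with a value, 795 were under 5% and 24 were over 50%. Levels of genes with a high share are uncertain, since reads from the shared part can be counted to another gene or to none.

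The matrix lists held 187 genes, of which 107 were at 1 TPM or more in both libraries (57.2%, against 24.2% of all genes listed and 48.9% of protein-coding genes) and 36 at 100 TPM or more. Together they held 1.75% and 1.64% of all TPM. By list the share at 1 TPM or more was 36.4% for the collagens that are not fibrillar, 42.9% for proteoglycans, 51.9% for adhesive and matricellular glycoproteins, 60.0% for basement membrane genes, 62.5% for proteases and their inhibitors, and 68.8% for elastic fiber genes, so several lists lay close to protein-coding genes at large. The median member stood at 4.09 TPM, and the families mixed very abundant genes with genes at 0.

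Among the 11 fibrillar collagens, the rod-forming collagens of interstitial tissue, 9 were at 1 TPM or more. After the type I chains came the type V chains, which regulate fibril diameter, with Col5a2 at 276 and 322 TPM and Col5a1 at 179 and 157 TPM. Col3a1, the type III collagen of soft connective tissue, was far lower at 32 and 18.2 TPM. Both type I chains were far above type III in each library, by more than the libraries differed for any of the 3 genes. Col2a1, the cartilage collagen, had 0 and 1 counts.

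The other 33 collagens had 12 members at 1 TPM or more and 9 with no count in either library. The highest was Col6a1, a chain of the beaded filaments of type VI collagen, at 434 and 298 TPM, with its partners Col6a2 at 83 and 57 TPM and Col6a3 at 16.5 and 8.94 TPM. Col8a1, a short-chain collagen, stood at 142 and 140.2 TPM. The basement membrane chains Col4a1 and Col4a2 stood at 88.5 and 74.6 TPM and 69.4 and 61.8 TPM, while Col4a3 and Col4a4 had no count. Col16a1, a collagen that associates with fibrils, stood at 91.2 and 67.3 TPM.

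Every gene of collagen processing and crosslinking was expressed. All 21 were at 1 TPM or more, with a median of 44.3 TPM. Serpinh1, the collagen chaperone HSP47 of the endoplasmic reticulum, led at 1238 and 1221 TPM, and P4hb, the disulfide isomerase subunit of prolyl 4-hydroxylase, followed at 1071 and 1048 TPM. Pcolce, which enhances the cleavage of procollagen, stood at 355 and 291 TPM, and the prolyl isomerase Ppib at 266 and 273 TPM.

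Of the 27 adhesive and matricellular glycoproteins, 14 were at 1 TPM or more and 5 had no count. Ccn1, a matricellular protein and a well known target of YAP and serum response factor, stood at 909 and 1431 TPM. Spp1, which encodes osteopontin, stood at 1274 and 756 TPM, and Sparc, a collagen-binding glycoprotein, at 868 and 806 TPM. Ccn1 was higher in replicate 2 and Spp1 higher in replicate 1, while Sparc differed less. Thbs1, an adhesive protein that activates latent TGF-β, stood at 231 and 267 TPM.

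Several genes of connective tissue matrix were near 0, and they were picked after their values were seen. Postn, periostin, stood at 0.177 and 0.292 TPM from 10 and 18 counts. Lum, the proteoglycan lumican, stood at 0.189 and 0.058 TPM. Eln, the gene of elastin, had no count in either library, which allows up to 3 counts or 0.057 and 0.0524 TPM. Levels near 0 were thus found in families whose other members were abundant. Of the 14 proteoglycans, 6 were at 1 TPM or more, led by Bgn, biglycan, at 451 and 485 TPM and Dcn, decorin, at 82.6 and 53.5 TPM. Ogn, osteoglycin, and Vcan, versican, were lower at 33.1 and 29.6 TPM and 17.2 and 13.6 TPM.

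The elastic fiber list was mixed. Among its 16 genes, 11 were at 1 TPM or more, led by Ltbp1, which stores latent TGF-β in the matrix, at 303 and 284 TPM. Fbln2, a fibulin, stood at 151 and 164 TPM and Efemp2, fibulin-4, at 147 and 145 TPM. Fbn1, the main microfibril protein, stood at 92.2 and 90.2 TPM, and its relative Fbn2 at 1.12 and 0.503 TPM. Besides elastin, the microfibril-associated genes Mfap2, Mfap4 and Mfap5 were under 1 TPM in both libraries.

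Basement membrane genes were also transcribed. Of the 15, 9 were at 1 TPM or more, led by Hspg2, perlecan, at 187 and 165 TPM. Nid1, which links laminin to collagen IV, stood at 142 and 122 TPM. Of the laminin chains, Lamb1 stood at 139 and 121 TPM and Lamc1 at 122 and 104 TPM. Among the alpha chains that complete the laminin trimer, Lama5 led at 24.5 and 18.4 TPM, while Lama1 and Lama2 were under 0.1 TPM in both libraries and Lama4 had no count.

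The main metalloprotease inhibitors stood above every metalloprotease of the list. Timp1 and Timp2, tissue inhibitors of metalloproteases, stood at 786 and 793 TPM and 512 and 479 TPM, against 60.8 and 52.1 TPM for the membrane protease Mmp14 and 46.6 and 37.8 TPM for the gelatinase Mmp2. Plau, the urokinase protease, stood at 98.6 and 76.4 TPM. In total 15 of 24 genes of the list were at 1 TPM or more. Both libraries had these genes in the same order on the TPM scale, although Timp2 led Timp1 in CPM, which is not divided by length.

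Integrins, the receptors that bind cells to the matrix, were expressed in part. Of 26, 10 were at 1 TPM or more (38.5%), a share between that of all genes listed and that of protein-coding genes. Itgb1, the beta chain shared by most matrix receptors, led at 829.6 and 934 TPM. Its partners Itga5, which makes the fibronectin receptor, and Itga3, which makes a laminin receptor, stood at 228 and 203 TPM and 163 and 147 TPM. Itgb5 and Itgav, which form a vitronectin receptor, stood at 106 and 94.5 TPM and 101 and 98.1 TPM. Of the collagen-binding chains, Itga1 stood at 0.058 and 0.030 TPM, Itga11 at 0.15 and 0.138 TPM, Itga2 at 1.1 and 0.555 TPM and Itga10 at 0.742 and 1.01 TPM. These 4 alpha chains were lower in both libraries than Itga5, Itga3 and Itgav, while Itgb1 serves collagen receptors as well.

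**Figure D2:**
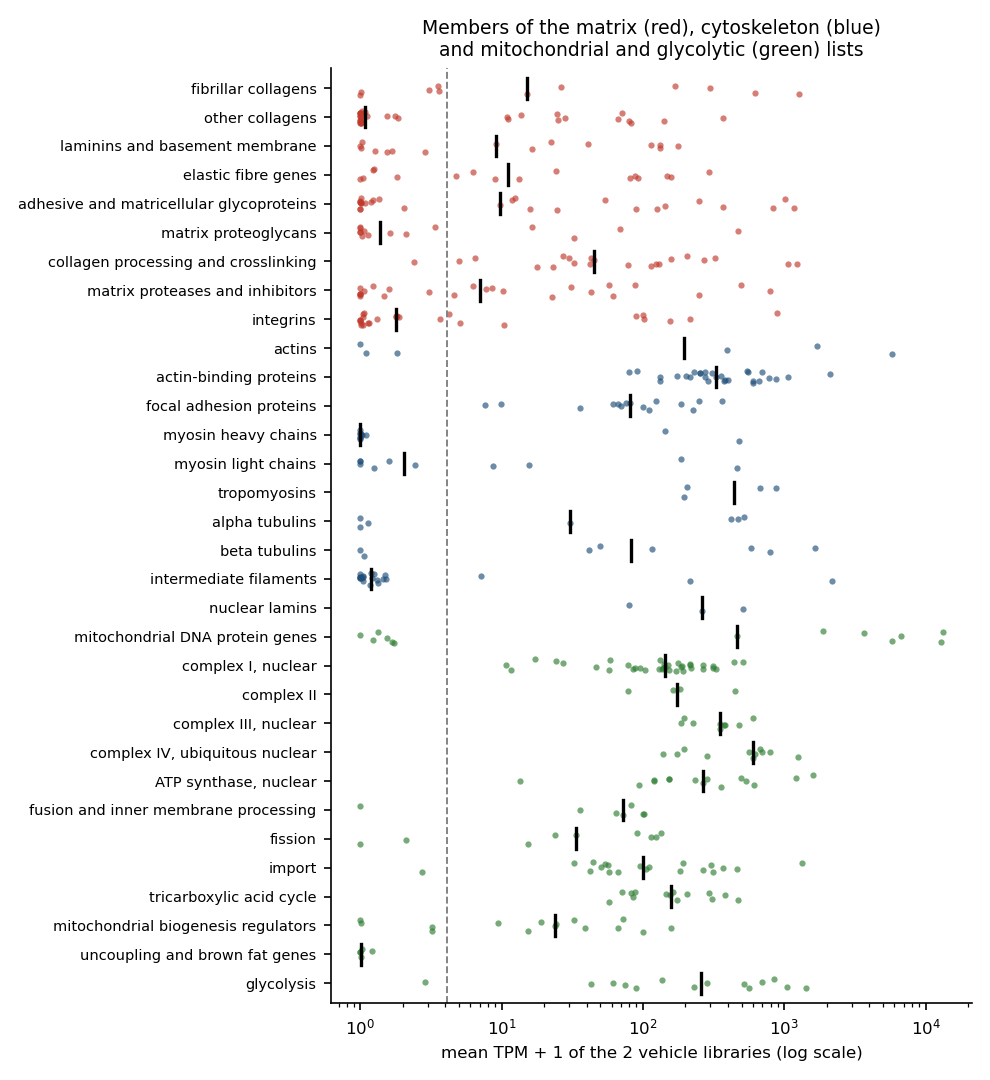
Mean TPM plus 1 of each list member (horizontal, log scale) for the matrix, cytoskeleton and mitochondrial lists, 1 point per gene, with a black bar at the list's median and a dashed line at the median of all genes with a count (3.13 TPM). The actin-binding list and the nuclear respiratory lists have no member near the left edge, the mitochondrial DNA list has several there, and collagens, myosin heavy chains and intermediate filaments split into abundant and silent members.

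The cytoskeleton lists held 114 genes, 74 of them at 1 TPM or more (64.9%, against 48.9% of protein-coding genes) and 55 at 100 TPM or more, and took 3.41% and 3.38% of all TPM. The actins were split by family. Actb and Actg1, the cytoplasmic actins, stood at 5979 and 5547 TPM and 1689 and 1721 TPM. Acta2, smooth muscle actin and the usual marker of the myofibroblast, was the only other actin above 1 TPM in both libraries, at 279.7 and 501 TPM. The skeletal actin Acta1 stood at 1.0 and 0.644 TPM, the enteric Actg2 at 0 and 0.182 TPM, and the cardiac Actc1 had no count.

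All 29 actin-binding genes were at 1 TPM or more and 27 at 100 TPM or more, the lowest being Pfn2 at 74.1 and 82.7 TPM. Cfl1, cofilin, which severs filaments, led at 2050 and 2173 TPM. Flna, the filamin that crosslinks actin, stood at 1051 and 1076 TPM, and Pfn1, profilin, which feeds actin to growing filaments, at 898 and 851 TPM. Tmsb4x, thymosin beta 4, which holds free actin monomers, and Msn, moesin, which ties actin to the membrane, stood at 674 and 872 TPM and 651 and 744 TPM. All 15 focal adhesion genes were also expressed, led by Zyx, zyxin, at 380.3 and 343 TPM. Tln1, talin, which activates integrins, stood at 246 and 249 TPM and Vcl, vinculin, at 226 and 226 TPM.

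Among motor genes the non-muscle forms were abundant. Of 11 myosin heavy chains, Myh9 stood at 505 and 454 TPM and Myh10 at 141 and 144 TPM. The next heavy chain was the smooth muscle gene Myh11 at 0.122 and 0.074 TPM, and 6 had no count. Among the light chains, Myl6 stood at 455 and 463 TPM, Myl12a at 169 and 202 TPM and the contractile form Myl9 at 12.6 and 16.7 TPM. All 4 tropomyosins, which coat actin filaments, were at 100 TPM or more, with Tpm1 at 851 and 901 TPM and Tpm4 at 652 and 702 TPM, an order that turned when TPM was recomputed with annotation exon lengths.

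Tubb5 led the beta tubulins at 1668 and 1614 TPM, ahead of Tubb6 at 835 and 758 TPM and Tubb4b at 581 and 578 TPM. Tubb3, often used as a neuronal marker, stood at 47.1 and 49.6 TPM. The alpha tubulins Tuba1b, Tuba1c and Tuba1a stood at 524 and 515 TPM, 479 and 455 TPM and 399.6 and 444 TPM, but between 52.7% and 72.9% of their windows occur in other genes, so their order is uncertain. Of 21 intermediate filament genes, Vim, Nes at 215 and 211 TPM and Krt10 at 6.34 and 6.02 TPM were at 1 TPM or more. Nes encodes nestin, a filament of progenitor cells. Des, the muscle filament desmin, stood at 0.164 and 0.188 TPM, and the simple epithelial keratin Krt8 at 0.315 and 0.361 TPM. Lmna, the nuclear lamin of stiff tissues, stood at 551 and 464 TPM and Lmnb1 at 262 and 259 TPM.

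The promoters of a cytoplasmic actin and of a calponin are shown because a CArG box, the site of serum response factor, lies in them.
Actg1 (chr11:120348446-120348745, minus strand): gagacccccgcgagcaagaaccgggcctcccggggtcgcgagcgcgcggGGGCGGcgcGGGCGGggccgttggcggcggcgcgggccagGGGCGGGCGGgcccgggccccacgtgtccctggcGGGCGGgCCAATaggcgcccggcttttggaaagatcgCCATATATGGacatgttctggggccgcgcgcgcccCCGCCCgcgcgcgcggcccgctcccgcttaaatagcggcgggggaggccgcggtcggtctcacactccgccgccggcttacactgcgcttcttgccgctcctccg
Cnn2 (chr10:79988350-79988649, plus strand): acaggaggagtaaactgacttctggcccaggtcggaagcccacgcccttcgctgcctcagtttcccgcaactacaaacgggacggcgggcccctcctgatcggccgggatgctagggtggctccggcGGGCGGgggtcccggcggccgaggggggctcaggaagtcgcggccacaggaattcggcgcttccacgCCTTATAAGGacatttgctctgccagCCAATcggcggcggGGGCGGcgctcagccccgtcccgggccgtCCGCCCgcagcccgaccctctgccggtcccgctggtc
In Cnn2 the box overlaps a TATAA match, and both are in the same run of capitals. A CArG box was found in 11 of the 98 cytoskeleton genes with a window (11.2%), against 1.54% of all windows and 2 of 133 matrix genes. Among the genes holding it, Actg1, Cnn2, Arpc4 and Vcl were at 100 TPM or more, while Actc1, Myh4 and Myl3, of striated muscle, had no count.

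The lists of mitochondrial and glycolytic genes held 172 members, of which 157 were at 1 TPM or more (91.3%, against 48.9% of protein-coding genes) and 98 at 100 TPM or more, and they took 7.93% and 8.25% of all TPM. All 75 listed nuclear subunits of complexes I to IV and of ATP synthase were at 1 TPM or more, with a median of 191 TPM. For complex IV the list held ubiquitous subunits only, so tissue-specific forms such as Cox4i2, with no count, are not among the 75.

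The list medians were 141 TPM for complex I, 172 TPM for complex II, 352 TPM for complex III, 599.5 TPM for complex IV and 266 TPM for ATP synthase. Cox8a, a small subunit of complex IV, led its list at 1295 and 1204 TPM. Atp5b and Atp5a1, the catalytic head of ATP synthase, stood at 1570 and 1599 TPM and 1202 and 1210 TPM. Ndufa2 led complex I at 558 and 455 TPM, Sdhd complex II at 435 and 455 TPM and Uqcr10 complex III at 618 and 576 TPM. Subunits of the same complex therefore differed widely in level on the TPM scale.

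A few subunits stood far below their partners, and these were singled out after their values were seen. In complex I, Ndufs5 stood at 10.7 and 8.55 TPM, with 21.7% of its windows shared with other genes, and Ndufb4 at 9.88 and 11.4 TPM, with 18.3% shared. Atp5l, of ATP synthase, stood at 12.9 and 12.1 TPM with 7.63% shared. Tomm6, a small subunit of the outer membrane import pore, was lowest of all at 2.31 and 1.12 TPM, 69.1% of its windows were shared, and 84.2% of its exon sequence overlaps another gene. Whether shared or overlapping sequence lowers these levels was not tested.

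The genes of mitochondrial DNA fell into 2 separate sets. Of the 13 protein genes, 7 had from 1617 to 152748 counts in a library, and the other 6 had at most 5. The abundant set held mt-Co1, mt-Nd1, mt-Cytb at 6444 and 6897 TPM, mt-Nd2 at 5532 and 6076 TPM, mt-Nd5 at 3398 and 3915 TPM, mt-Nd4 at 1794 and 1966 TPM and mt-Nd6 at 488 and 441 TPM. The low set held mt-Co2, mt-Co3, mt-Atp6, mt-Atp8, mt-Nd3 and mt-Nd4l, which follow one another on the mitochondrial genome, apart from transfer RNA genes, from position 7013 to 10173. The values were set beside the sequence the genes share with others.

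Shared windows separated the sets almost completely. In the low set, 5 of 6 genes had 98% to 100% of their windows in another gene's transcripts, and none of the 7 abundant genes had more than 62.2%. The exception, mt-Atp8, had no shared window, but 21.1% of its exon is also part of the overlapping mt-Atp6. A run of 7 pseudogenes on chromosome 1, chosen after the values were seen, held 99.5% of the windows of mt-Co2, 99.5% of mt-Atp6 and 99.9% of mt-Co3. Its members had low counts, for example Gm10925 with 176 and 223 counts and Gm28661 with 149 and 175 counts. Levels of the 5 low genes with shared windows are uncertain, mt-Atp8 had 1 and 1 counts, and the part that shared sequence plays in the low set was not tested.

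Of the genes that shape the mitochondrial network, 6 of 7 for fusion and 8 of 9 for fission were at 1 TPM or more. Mfn2 and Mfn1, the mitofusins of the outer membrane, stood at 80.6 and 81.3 TPM and 63.5 and 63.4 TPM. Opa1, the fusion protein of the inner membrane, stood at 70.1 and 73.1 TPM, and its proteases Yme1l1 and Oma1 at 98.4 and 103 TPM and 35.1 and 34.7 TPM. For both mitofusins and Opa1 the libraries differed by less than the median gene, which differed by 1.08-fold. On the fission side Dnm1l, the dynamin DRP1, stood at 129 and 137 TPM, and its receptors Fis1 and Mff at 127 and 119.9 TPM and 22 and 23.6 TPM. Dnm1l stood above each gene of the fusion list in both libraries.

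The lists of import, the tricarboxylic acid cycle and glycolysis were expressed in full. All 20 import genes, all 14 genes of the cycle and all 14 glycolytic genes were at 1 TPM or more, against 48.9% of protein-coding genes. The lists leave out some paralogues, such as Tomm20l, Pklr and Gapdhs, which had no count. Hspa9, the matrix motor of import, led the import list at 1261 and 1418 TPM, and Mdh2, malate dehydrogenase, led the cycle at 481 and 459 TPM. Among glycolytic genes Pkm, pyruvate kinase, stood at 1455 and 1399 TPM, Gapdh at 1070 and 1034 TPM and Ldha, lactate dehydrogenase A, at 847 and 835 TPM. The medians were 257 TPM for glycolysis and 158 TPM for the cycle.

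Regulators of mitochondrial mass were lower. Of the 15, 13 were at 1 TPM or more, and Pprc1, a coactivator of the PGC-1 family that responds to growth, led at 166 and 148 TPM. Its relatives Ppargc1a and Ppargc1b, which dominate in muscle and brown fat, stood at 2.03 and 2.4 TPM and 2.01 and 2.37 TPM. Tfam, which packs and transcribes mitochondrial DNA, stood at 63.5 and 67.9 TPM and Gabpa, an activator of respiratory genes, at 96.1 and 103 TPM. None of the 5 uncoupling and brown fat genes reached 1 TPM, and Ucp1 had no count in either library.

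In bulk RNA, fewer cells of a type and less RNA per cell cannot be told apart. Of 18 fibroblast surface and core markers, 13 were at 1 TPM or more (72.2%, against 48.9% of protein-coding genes). S100a4, fibroblast-specific protein 1, stood at 1963 and 1559 TPM, with 47.4% of its windows shared. Cd44, the hyaluronan receptor, stood at 342 and 318 TPM, Lrp1 at 186 and 156 TPM, Cd34 at 124 and 120.2 TPM and Vcam1 at 116 and 101 TPM.

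Other markers used to sort fibroblasts were low, and they were picked after their values were seen. Thy1, a surface antigen of many fibroblasts, stood at 0.668 and 0.283 TPM from 13 and 6 counts, and Nt5e, CD73, at 0.251 and 0.263 TPM. Fap and Dpp4, markers of reactive and of progenitor fibroblasts, had no count in either library, which allows up to 0.0816 and 0.0749 TPM for Fap. Pdgfrb and Pdgfra, the receptors for platelet-derived growth factor, stood at only 19.5 and 13.2 TPM and 14.9 and 9.01 TPM. Surface markers thus ranged from Cd44 at over 100 TPM to genes with no count.

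Of 42 mesenchymal transcription factors, 30 were at 1 TPM or more (71.4%, against 48.9% of protein-coding genes). Twist1, a regulator of mesenchyme and of epithelial-mesenchymal transition, led at 159.9 and 162 TPM. Osr1, a factor of intermediate and lateral mesoderm, stood at 138 and 120.0 TPM and Prrx1, a marker of limb and body wall mesenchyme, at 118 and 100.3 TPM. Snai1 stood at 70.7 and 75.3 TPM. Factors tied to a position in the embryo were mixed. Pitx1, which specifies the hindlimb, stood at 59 and 53.9 TPM, while Tbx4 of the hindlimb had no count and Tbx5 of the forelimb stood at 0.527 and 0.060 TPM.

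The Hox genes, which record position along the body axis, were mostly under 1 TPM. Of 39, only 3 were at 1 TPM or more in both libraries (7.69%, against 24.2% of all genes listed and 48.9% of protein-coding genes), and 11 had no count in either (a smaller share than the 34.6% of protein-coding genes). Hoxd8 stood at 32.6 and 35 TPM and its neighbor Hoxd9 at 7.14 and 8.47 TPM. Hoxb9 stood at 2.21 and 1.59 TPM. The other 36 did not reach 1 TPM in both libraries, and the highest of them was Hoxc4 at 1.02 and 0.606 TPM. Clusters A and C had no member at 1 TPM or more in both libraries. The 2 most abundant members were thus neighbors in cluster D.

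**Figure D3:**
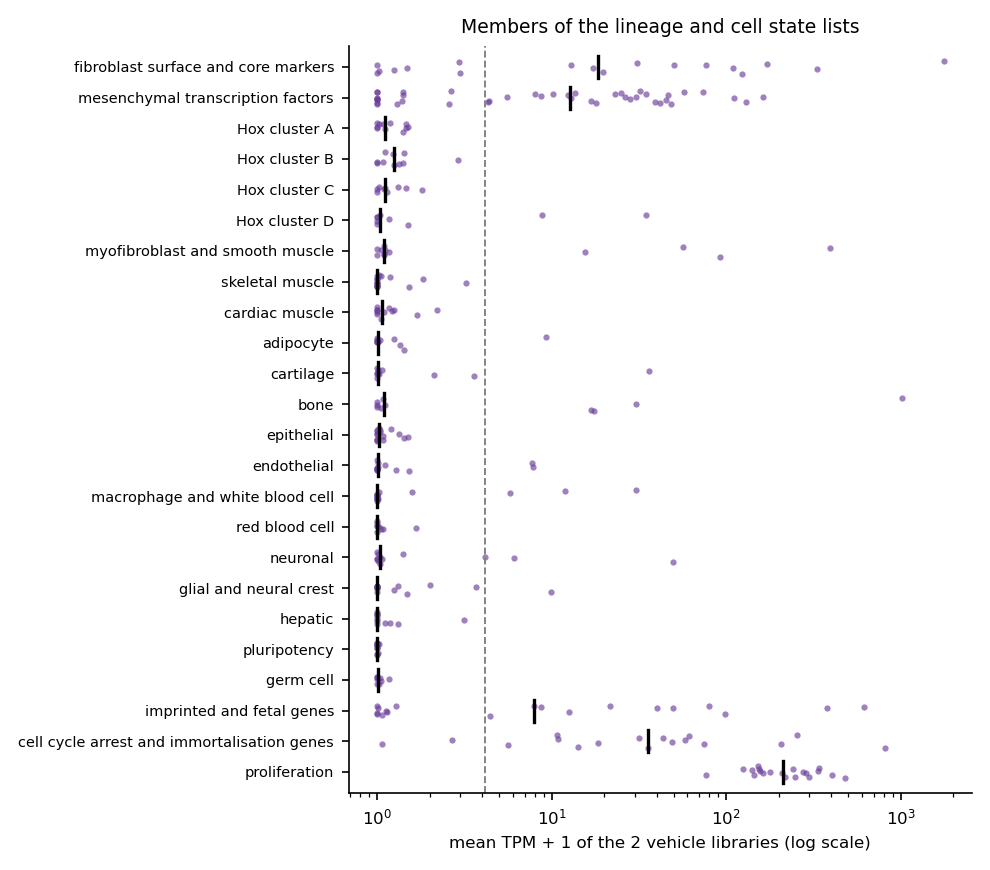
Mean TPM plus 1 (horizontal, log scale) of each member of the lineage and cell state lists, 1 point per gene, with a black bar at each median and a dashed line at the median of all genes with a count (3.13 TPM). Mesenchymal factors and proliferation genes lie to the right, and most members of the Hox, epithelial, blood, liver and pluripotency lists lie at the left edge.

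Lists of other lineages had few members at 1 TPM or more. Of 168 genes in 14 lists, 21 were at 1 TPM or more in both libraries (12.5%, against 24.2% of all genes and 48.9% of protein-coding genes), and 82 had no count in either (a share between the 34.6% of protein-coding genes and the 58.5% of all genes listed). The epithelial, red blood cell, pluripotency and germ cell lists had none at 1 TPM, and their highest members were Krt18 at 0.429 and 0.59 TPM, Epor at 0.852 and 0.498 TPM, Fgf4 at 0.048 and 0 TPM and Tex14 at 0.215 and 0.141 TPM. The numbers without a count were 7 of 16 epithelial, 5 of 9 red blood cell, 9 of 11 pluripotency and 4 of 8 germ cell genes, of which the pluripotency list alone lay above the share of all genes listed. Cdh1, which encodes E-cadherin, had no count, which allows up to 0.101 and 0.0927 TPM.

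White blood cell and vessel lists had a few members at 1 TPM or more (20% and 15.4%, against 24.2% of all genes listed). Cd14, a co-receptor for lipopolysaccharide, stood at 30.9 and 28.3 TPM and Cd68, a lysosomal protein, at 11.9 and 10 TPM, and Csf1r, the receptor for macrophage colony-stimulating factor, at 4.43 and 5.19 TPM. Of the 15 macrophage and white blood cell genes 8 had no count, among them Adgre1 and Aif1, and Ptprc, CD45, stood at 0.0080 and 0 TPM. The summed level of the list was 48 and 44.1 TPM. In the endothelial list Flt1, a receptor for VEGF, stood at 7.76 and 5.93 TPM and Egfl7 at 6.45 and 6.95 TPM, while 6 of 13 genes had no count, Kdr among them, and Pecam1 stood at 0.049 and 0.159 TPM. In both lists the share with no count lay between the 34.6% of protein-coding genes and the 58.5% of all genes listed. Csf1r and Flt1 were thus present while Ptprc, Adgre1, Kdr and Pecam1 were at or near 0.

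The muscle and fat lists had a single member each at 1 TPM or more (6.25% to 9.09% of a list), and the cartilage and bone lists had several. The shares were 27.3% for cartilage and 40% for bone, between the 24.2% of all genes listed and the 48.9% of protein-coding genes. Pax3 led the 16 skeletal muscle genes at 2.04 and 2.4 TPM, with 10 of them at no count, Myod1 and Myog included. Tnnt2 led the 12 cardiac genes at 1.27 and 1.17 TPM and Dgat2 the 11 fat genes at 7.99 and 8.53 TPM, with 5 genes of each list at no count, Adipoq among them. In the cartilage list Sox9, the master regulator of chondrocytes, stood at 42.6 and 27.8 TPM, Col11a2 at 2.37 and 2.84 TPM and Acan, aggrecan, at 1.07 and 1.16 TPM, while 3 of the 11 genes had no count and Col2a1 was near 0. The bone list was led by Spp1, with Runx2 at 31.5 and 27.3 TPM and Phex at 16.9 and 16 TPM, and 3 of its 10 genes had no count, Alpl and Ibsp included. In the cartilage and bone lists the share with no count was under the 34.6% of protein-coding genes. It was above the 58.5% of all genes listed for skeletal muscle, and between these shares for the cardiac and fat lists. The regulators Sox9 and Runx2 were thus expressed while Col2a1, Alpl and Ibsp were at or near 0.

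Of 12 neuronal genes 3 were at 1 TPM or more (25.0%, about the share of all genes listed), Tubb3, Map2 at 5.24 and 4.92 TPM and Gap43 at 3.13 and 3.16 TPM, and 3 had no count. Mitf led the 13 glial and neural crest genes at 9.22 and 8.72 TPM, and 7 had no count, Sox10 among them. Apob led the 11 hepatic genes at 1.86 and 2.42 TPM, and 7 had no count, Alb among them. In the myofibroblast and smooth muscle list 4 of 12 were at 1 TPM or more (33.3%, between the share of all genes listed and that of protein-coding genes), which were Acta2, Smtn at 93.4 and 89.8 TPM, Tagln at 36.8 and 75.1 TPM and Myl9, while Cnn1 stood at 0.113 and 0.103 TPM and Myocd, of differentiated smooth muscle, had no count. Acta2 and Tagln, which activated fibroblasts also use, were thus far above Cnn1 and Myh11. For Tagln, 67.9% of the exon sequence overlaps another gene, and what this does to its level was not tested.

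Growth genes were abundant. All 20 proliferation genes were at 1 TPM or more, against 48.9% of protein-coding genes, and 19 were at 100 TPM or more, with a median of 212 TPM. Rrm2, which makes deoxynucleotides, led at 479.6 and 478 TPM, followed by Ccna2, cyclin A2, at 382 and 420.5 TPM and Top2a, topoisomerase II, at 320.2 and 356 TPM. Mcm4, of the replicative helicase, and Pcna, its sliding clamp partner at the fork, stood at 345 and 322 TPM and 311 and 284 TPM. The list lay well above the median of all genes with a count.

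The promoters of 3 genes of this list are shown because the letters CCAAT, the site of the factor NF-Y, recur in them.
Top2a (chr11:99024140-99024439, minus strand): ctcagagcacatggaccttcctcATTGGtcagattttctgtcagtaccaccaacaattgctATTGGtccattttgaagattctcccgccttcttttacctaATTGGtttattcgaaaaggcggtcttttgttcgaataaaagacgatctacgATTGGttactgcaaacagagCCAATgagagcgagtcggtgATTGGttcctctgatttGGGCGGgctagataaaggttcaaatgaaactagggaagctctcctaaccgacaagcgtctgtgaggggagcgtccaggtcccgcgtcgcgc
Cdk1 (chr10:69352863-69353162, minus strand): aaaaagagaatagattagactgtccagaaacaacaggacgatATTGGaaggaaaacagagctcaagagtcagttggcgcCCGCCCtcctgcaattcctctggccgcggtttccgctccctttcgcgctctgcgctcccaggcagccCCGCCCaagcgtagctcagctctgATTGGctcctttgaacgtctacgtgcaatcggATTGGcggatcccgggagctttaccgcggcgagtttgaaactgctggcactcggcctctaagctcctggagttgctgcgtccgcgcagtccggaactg
Ccnb2 (chr9:70421505-70421804, minus strand): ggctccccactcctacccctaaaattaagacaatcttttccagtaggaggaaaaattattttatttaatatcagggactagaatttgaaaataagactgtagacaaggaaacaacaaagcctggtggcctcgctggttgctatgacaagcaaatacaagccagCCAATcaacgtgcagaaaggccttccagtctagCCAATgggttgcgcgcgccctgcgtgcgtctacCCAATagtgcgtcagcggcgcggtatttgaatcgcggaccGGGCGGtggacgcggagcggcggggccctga
The windows held 6 matches in Top2a, 3 in Cdk1 and 3 in Ccnb2, counting both strands. CCAAT was found in 16 of the 17 proliferation genes with a window (94.1%), against 38.8% of all windows, and TATAA in none of them. Among genes at 100 to under 1000 TPM, where 19 of the 20 genes lie, CCAAT was in 40.3%, close to the share of all windows.

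A list of 17 genes was tied to cell cycle arrest and immortalisation, and it holds genes that restrain the cycle and genes that drive it. It had 16 members at 1 TPM or more (94.1%, against 48.9% of protein-coding genes) and 3 at 100 TPM or more, with a median of 34.8 TPM. Cdkn2a, the locus of p16 and p19ARF, led at 882 and 748 TPM and ranked 141. Trp53, which encodes p53, stood at 256 and 249 TPM and Myc, which drives the cycle, at 221 and 190.2 TPM. Cdkn2b, which encodes p15, stood at 75.2 and 71.2 TPM and Mdm2, the ligase that opposes p53, at 59.1 and 61.4 TPM. Rb1, the retinoblastoma protein, was low at 5.07 and 4.23 TPM. The level of an mRNA does not show whether the protein is intact, and the state of these genes in the cells is not given in the sources used here.

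The imprinted and fetal list held abundant and absent genes. Hmga2 and Hmga1, chromatin proteins of embryonic cells, stood at 680.2 and 545 TPM and 394 and 359 TPM. Igf2bp2 stood at 77 and 80.2 TPM and Igf2bp1, an RNA-binding protein of the fetus, at 50.5 and 47.1 TPM. The imprinted genes Ndn and Grb10 were expressed at 96 and 100.1 TPM and 40.7 and 37.3 TPM, whereas H19 and Peg3 had no count and Igf2, the fetal growth factor, had 0 and 1 counts. Of the 19 genes 11 were at 1 TPM or more (57.9%, near the 48.9% of protein-coding genes). Of the sex chromosome genes, Xist had 1 and 2 counts, and the Y-linked Ddx3y had 28 and 33 counts against 23607 and 27565 for its X-linked partner Ddx3x. Neither Xist nor any of the 4 Y-linked genes measured reached 1 TPM.

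The choice between paralogues was examined in 80 groups of related genes, of which 78 had a member at 1 TPM or more in both libraries. A leader held at least 90% of the group's summed TPM in both libraries in 34 groups, and at least 99% in 21. The median share of the leader was 86.5%. The lead over the next member was larger than the largest ratio between the libraries for either gene in 75 of the 78 groups. Those 75 include groups whose next member had no count in either library, such as those led by Cox8a, Gapdh and Pkm. No ratio exists there, and the lead counted as larger by rule. The exceptions were the dynamins, the beta thymosins and the PDGF receptors.

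In several groups of energy metabolism 1 gene held nearly all of the TPM. Among tissue-specific subunits of complex IV, Cox4i2, Cox6a2, Cox6b2, Cox7b2 and Cox8b had no count, and Cox7a1 stood at 0.288 and 0.529 TPM, against 730.2 and 664 TPM for the ubiquitous Cox4i1 and 622 and 610.2 TPM for Cox7a2. In its own group Cox7a2 held less, 83.8 and 82.8% of the TPM, with Cox7a2l next. Pdha1, of pyruvate dehydrogenase, stood at 284 and 314 TPM with no count for the testis form Pdha2. Pdk3 led the kinases of that enzyme with 93.7 and 94.5% of their TPM, and Pdk1 came next at 5.38 and 4.6 TPM. Aldoa, of glycolysis, held 99.9 and 99.9% of the aldolases and Ldha 98.9 and 98.9% of the lactate dehydrogenases, with Ldhb at 9.12 and 9.19 TPM. Slc2a1, the basal glucose transporter GLUT1, held 99.8 and 99.9% of its group. No creatine kinase reached 1 TPM, the highest being Ckb at 0.16 and 0 TPM.

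Other metabolic groups were shared. Mfn2 held 55.9 and 56.2% of the mitofusin TPM, and its ratio to Mfn1 was larger than the ratio between the libraries for either gene. Hk1 and Hk2, the hexokinases, stood at 63 and 58.3 TPM and 45.4 and 37.8 TPM. Pfkm and Pfkl, the phosphofructokinases named for muscle and liver, stood at 90.9 and 85 TPM and 76.5 and 71.6 TPM, but the order turned on the length used: in CPM, and with the longest coding transcript as the length, Pfkl led. Slc25a5 held 64.1 and 64.9% of the ADP/ATP carriers, ahead of Slc25a4. Vdac1 held 72.7 and 73.2% of the outer membrane channels, ahead of Vdac2. Atp5g3 held 74.1 and 74.5% of the 3 genes for subunit c of ATP synthase.

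**Figure D4:**
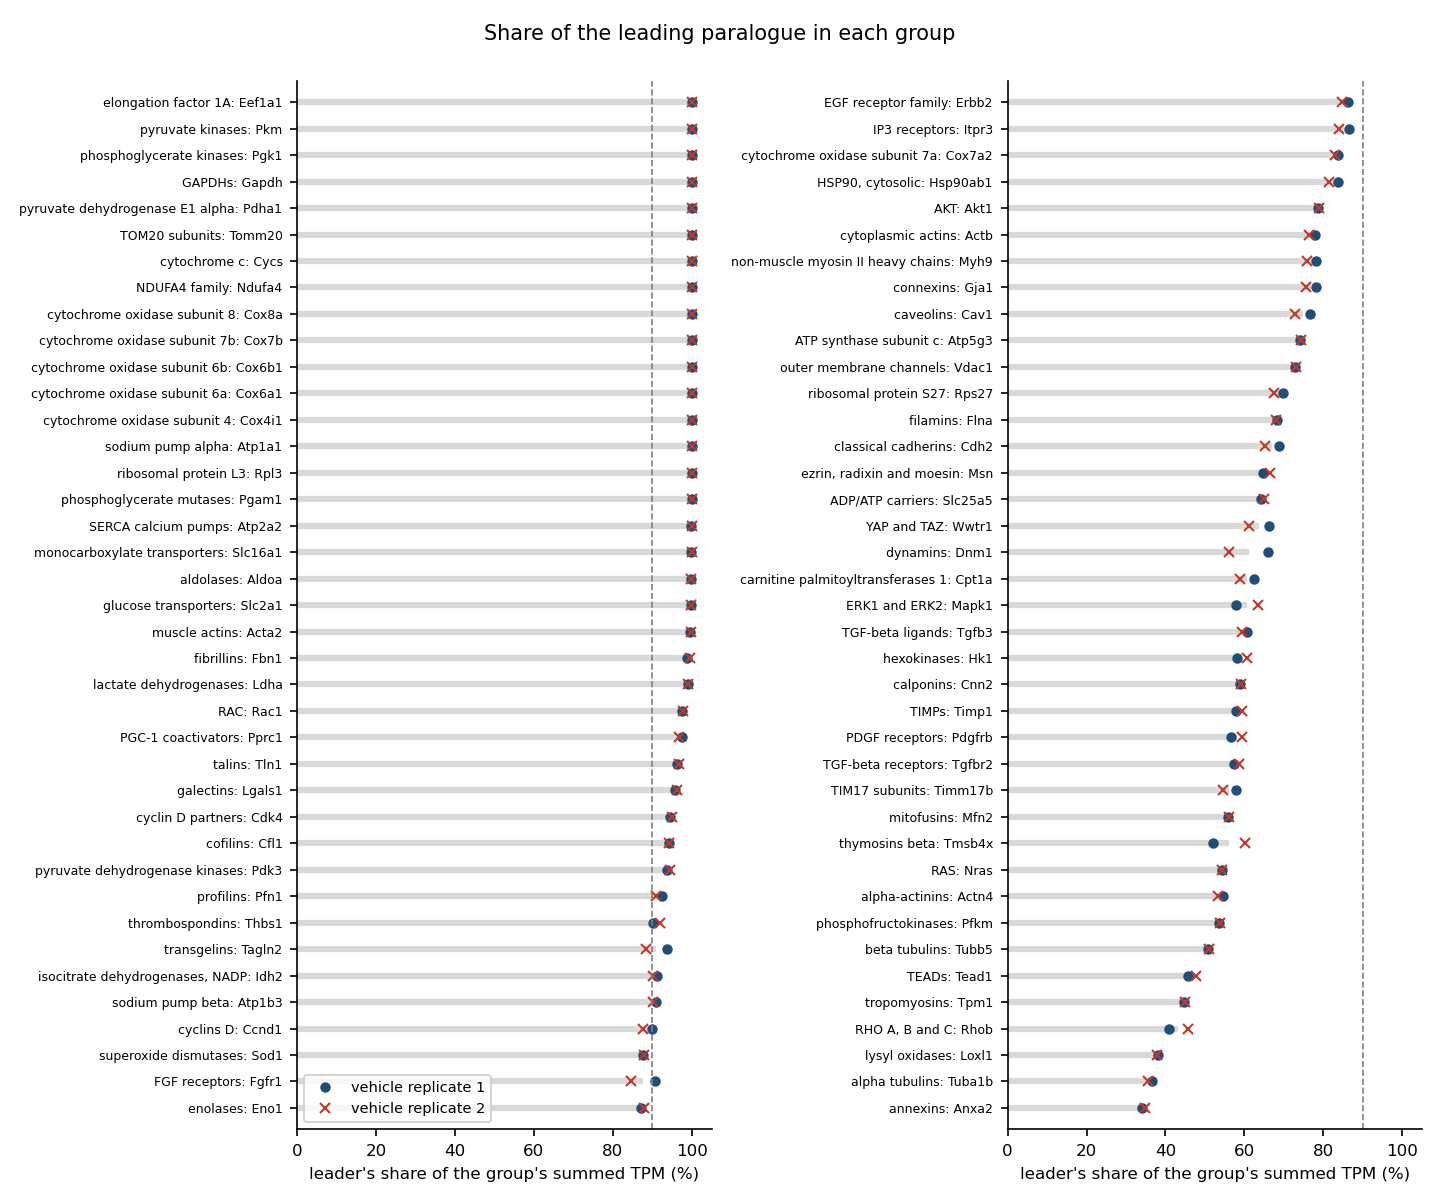
Share of the leading gene in the summed TPM of its paralogue group (horizontal, percent), with replicate 1 as a blue dot, replicate 2 as a red cross, a gray bar to their mean and a dashed line at 90%, for the 78 groups with a member at 1 TPM or more, sorted by share. Most complex IV subunit groups lie at 100% at the top of the left panel, together with Eef1a1 and Tomm20, and annexins, alpha tubulins and lysyl oxidases close the right panel with leaders under 40%.

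Structural and signaling groups differed in how far 1 gene led. Rac1 held 97.4 and 97.7% of the RAC genes, Tln1 96.4 and 96.7% of the talins and Cfl1 94.1 and 94.2% of the cofilins. In 6 groups no member reached 50% in either library, with annexins at 34.2 and 34.8% for Anxa2 and lysyl oxidases at 38.1 and 37.7% for Loxl1. Actb held 78 and 76.3% of the cytoplasmic actins and Myh9 78.2 and 75.9% of the non-muscle myosin heavy chains. Lgals1 held 95.8 and 96.2% of the galectins, ahead of Lgals3 at 373 and 298 TPM. Akt1 led the AKT kinases at 78.7 and 79%, and Nras the RAS genes at 54.4 and 54.2%. Erbb2 rather than Egfr led the EGF receptor family, at 43.8 and 40.1 TPM against 6.72 and 6.89 TPM. Wwtr1, which encodes TAZ, stood at 139 and 116 TPM and Yap1 at 71.3 and 73.4 TPM, an order that turned in replicate 2 in CPM and in both libraries with the longest coding transcript as the length.

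Leaders in the remaining groups included genes best known from other tissues. Dnm1, the dynamin best known from nerve terminals, stood at 121 and 83.8 TPM beside 62.2 and 65.4 TPM for the ubiquitous Dnm2, though this lead was within the spread between the libraries. Tgfb3 held 60.6 and 59.3% of the TGF-β ligands, ahead of Tgfb1. Itpr3, the low-affinity receptor for inositol trisphosphate, held 86.6 and 83.9% of its group. Cdh2, N-cadherin, led the classical cadherins at 68.7 and 65.2%, ahead of Cdh11, and Gja1, connexin 43, the connexins at 78.1 and 75.6%. In the cyclin D group Ccnd1 held 89.8 and 87.7%, and Cdk4 held 94.4 and 95.1% of the partner kinases.

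The spread between the 2 libraries sets how firmly a single level can be read. Over 13267 genes with 10 or more counts in both, the median absolute log2 ratio of replicate 2 to replicate 1 was 0.12, a 1.08-fold difference, where counting error alone would give 0.05. The 95th percentile was 1.52-fold. Spread fell with level, from a median of 1.16-fold at 1 to under 10 TPM to 1.05-fold at 100 to under 1000 TPM. Above 1000 TPM it was still 1.05-fold.

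Matrix genes were lower in replicate 2 more often than genes at large. Among all 13373 genes at 1 TPM or more in both libraries, 6101 were lower in replicate 2, which is 45.6%. Among the 107 matrix genes 81 were lower (75.7%), among the 21 collagens 18 were lower, and among 79 ribosomal protein genes 60 were lower (75.9%). The cytoskeleton lists stood close to all genes, with 33 of 74 lower (44.6%). Each count compares 1 library with another, and genes of a list are not independent.

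The ratios of single genes were larger for some contractile and matrix genes. Acta2 was 0.84 higher in replicate 2 on the log2 scale, Tagln, which binds actin in contractile cells, 1.03 higher and Ccn1 0.65 higher. Edn1, the vasoconstrictor endothelin 1, was 1.32 higher, from 12.2 and 30.3 TPM. In the other direction the log2 ratio of replicate 2 to replicate 1 was -0.75 for Spp1, -0.81 for Col3a1, -0.89 for Col6a3, -0.997 for Tgfbi, a TGF-β-induced matrix protein, and -0.38 for Col1a1. Acta2, Tagln and Ccn1 were thus higher and 18 of 21 collagens lower in the same library.

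Such differences were rare. Of 8231 protein-coding genes at 10 TPM or more in either library and with 100 or more counts in both, 49 (0.595%) differed by over 1.5-fold, 39 of them lower and 10 higher in replicate 2. Ppbp, a platelet chemokine, was the most abundant among the higher ones after Ccn1, at 511 and 860.1 TPM. Gsta4, a glutathione transferase, and Sema7a, a membrane semaphorin, were among the lower ones at 465 and 275 TPM and 219 and 119 TPM. These genes were chosen after their values were seen. By the rule without a minimum of counts, the 5 largest ratios in each direction belonged mostly to genes with few counts. Higher in replicate 2 were Gm25698 with 1 and 9 counts, Gm26287, Gm23564, Gm25099 and Gm23344. Lower were Gm27516, the pseudogene Rps15-ps2 with 319 and 48 counts, Gm15516, Mir7026 and Snord59a.

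**Figure D5:**
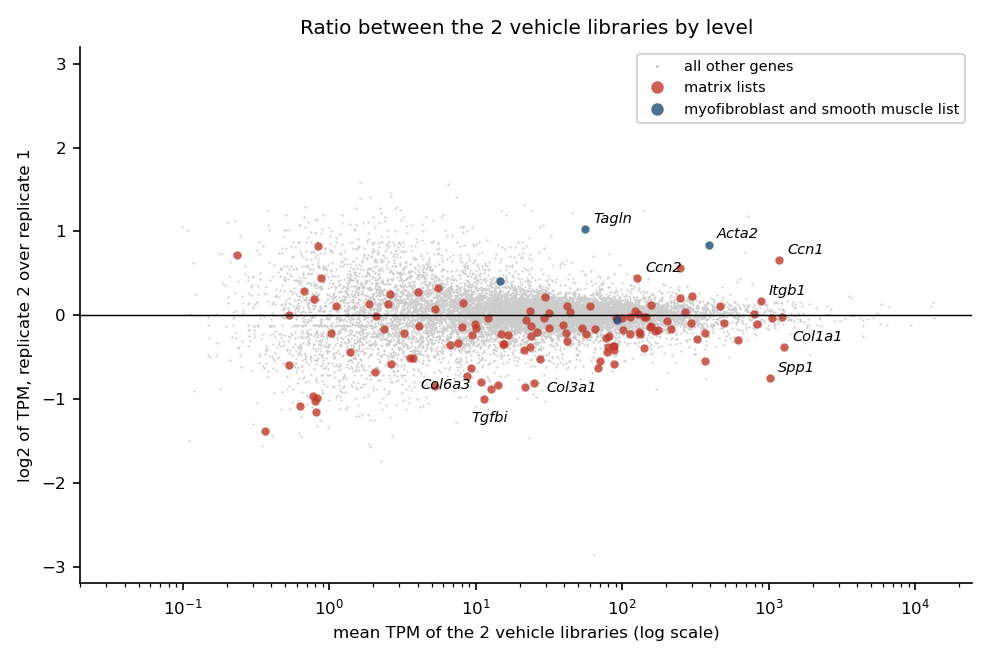
Log2 ratio of TPM in replicate 2 over replicate 1 (vertical) against mean TPM (horizontal, log scale) for 13267 genes with 10 or more counts in both libraries, with matrix list members in red and the myofibroblast and smooth muscle list in blue. Tagln, Acta2 and Ccn1 stand above the band of gray genes and Spp1 and several collagens below it.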

How the data were processed

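RNA-seq was made from wild-type mouse embryonic fibroblasts, and only the 2 vehicle libraries were analysed. Per the labels, the authors used the Illumina TruSeq RNA Sample Prep Kit, which does not mark strand. The submitters' processing notes name bcl2fastq, Trimmomatic, STAR, featureCounts and DESeq2, with versions not given there, and the GRCm38 (mm10) build. The authors deposited raw counts per gene, normalized counts (a signal, the counts divided by DESeq2 size factors) and TPM. TPM is the main unit here, and counts give depth: 22924037 and 25068530 reads.

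A gene was called expressed at 1 TPM or more in both libraries. Medians used log2(TPM + 1). No group was compared, so no test was run, and a gene with no count allows up to 3 counts; that limit covers counting error only. Replicate spread is the log2 ratio of TPM over genes with 10 or more counts in both libraries, and the script was tested on simulated data. Positions and types came from GENCODE vM21, promoters from RefSeq (685 of 932 list genes matched), and shared sequence from 50-base windows. Software was Python 3.11.15, pandas 2.3.3, numpy 2.4.6, matplotlib 3.10.9, R 4.3.3 and edgeR 4.0.16, which gave TMM-scaled counts as an alternative.

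Members and lists were chosen with earlier results of these data known. The text names the 20 highest genes, the 4 markers, up to 5 of the highest genes per list, the highest of each other-lineage list with the number at 0, the leader of each paralogue group it describes and in many the next gene, and the 5 largest ratios between libraries in each direction among genes at 10 TPM or more in either. Genes named for a low or absent level, sex chromosome genes, the pseudogenes and the protein-coding genes with 100 or more counts named for their ratio were chosen after their values were seen. Results for a few list members are not reported here.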

Additional observations from a re-analysis of the deposited data

How the results depend on the processing

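No paired analysis was possible because the report compares no groups. The 13373 genes at 1 TPM or more in both libraries became 22940 when any count in either library sufficed, and 14057 to 14096 in a single library. The share of the 10 most abundant genes, 8.41% on average, was 4.29% of raw counts and 6.67% of TPM without mitochondrially encoded genes, and 8.34% to 8.49% in a single library. Of the 168 genes of other lineages, 21 were expressed, 12 at a limit of 5 TPM, and 22 in each library alone. In 25 of 32 functional lists the median lay above that of all genes with a count, also in each library alone. That baseline covers 22940 genes of all types, 14074 of them protein-coding. A median over protein-coding genes alone was not computed, so the 25 is not a count against such genes. The number of paralogue groups with a leader at 90% or more, 34, ran from 34 to 36 in a single library and was 30 in CPM, 34 with annotation exon lengths and 35 with the longest coding transcript. The length behind TPM changed some leaders: 71 of 78 were kept in CPM, 77 with annotation exon lengths and 73 with the longest coding transcript, an alternative chosen after seeing the data. Naming between-library ratios from protein-coding genes with 100 or more counts was also chosen then. Depth limits genes near 0, where 1 count decides a value.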
